A study of Canis lupus familiaris with 26 samples.

Results

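The corpora lutea (CL) of firocoxib-treated bitches on day 20 after ovulation were compared with those of treated bitches on day 10. The 6 samples, 3 from each day, were taken by the day and the treatment in their labels from the 26 of the whole series. Each was poly-A selected RNA from CL tissue trimmed of the rest of the ovary, from a different mixed-breed bitch, and the labels give no age for single dogs. From the day of ovulation these bitches had received 10 mg/kg of firocoxib (Previcox), an inhibitor of PTGS2 (COX2), by mouth every day until surgery. The 6 control samples of the same days, given beside them, came from bitches that received a placebo according to the treatment protocol. The samples were numbered 1, 4 and 5 on day 10 and 2, 3 and 4 on day 20, and the control samples 2, 3 and 4 on day 10 and 1, 2 and 3 on day 20, and values are given in this order throughout. Reads counted on genes were 17568396, 20368715 and 20761635 in the day 10 samples and 16413338, 15965656 and 18468489 in the day 20 samples. Genes were kept for testing from a mean of 10 reads in either group, so the lowest ones rested on few reads.

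The CL forms from the granulosa and theca cells of the ovulated follicle and makes progesterone from cholesterol, which its cells take up or synthesize. In the dog it is the only source of this hormone in pregnancy, and it passes from a young stage, in which prostaglandins are among its regulators, to a mature stage that comes to depend on pituitary hormones, mainly prolactin. Firocoxib blocks the step from arachidonic acid to prostaglandin H2, from which the prostaglandin synthases make PGE2, PGD2, prostacyclin and thromboxane. Day 10 falls in the young stage and day 20 in the passage to that dependence. The comparison therefore asks what differed between these times while firocoxib was given. Day 20 bitches had also been treated for longer. Luteal age and length of treatment cannot be told apart in any comparison below that uses treated dogs.

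The 6 libraries did not group by day. Over the 13739 genes tested, the log2 CPM (read counts scaled to a common library size with TMM factors, prior count 2) of day 10 sample 1 had a Pearson r of 0.94 with day 20 sample 2. Its r with the other day 10 samples was 0.83 and 0.86. Day 10 samples 4 and 5 had an r of 0.97 with each other and of 0.95 and 0.95 with day 20 sample 4. Day 20 sample 3 was nearest to day 20 sample 4, with an r of 0.92, and farthest from day 10 sample 1, with 0.68. Within the days, the mean r was 0.89 on day 10 and 0.83 on day 20, against 0.95 and 0.96 in the control samples of these days (mean of 3 pairs each, over the genes tested in the 12 samples). These values come after a selection. The study's results section states that a control and a treated library of day 10 were dropped as outliers, judged by correlation and scatter plots. Those libraries were not analysed here. Day 10 sample 1 and day 20 sample 2 went against their day labels in being nearest to each other. Day 20 sample 4 was also nearer to day 10 samples 4 and 5 than to day 20 samples 2 (0.84) and 3 (0.92). The labels were kept as given, could not be checked from another label, and every difference between the days rests on them. The biological coefficient of variation, the spread between samples beyond counting error that edgeR estimates, was 61.6% in the treated and 33.6% in the control comparison. No sample was a copy of another, since a chi-square test of the counts of any 2 samples gave 146 or more for each degree of freedom.

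**Figure D1:**
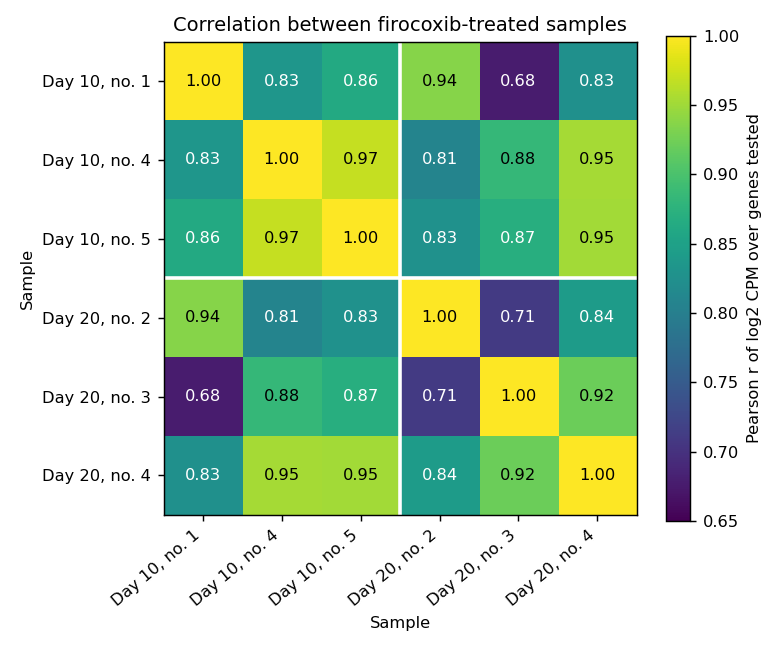
Pearson correlation of log2 CPM between the 6 treated samples, with one row and one column per sample, the value written in each cell and white lines between the days. Day 10 sample 1 and day 20 sample 2 share the value 0.94, and day 20 sample 3 has 0.71 with sample 2 of its own day.

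A single axis held 78.9% of the sum of squares around the 2 day means, with day 10 sample 1 (0.93) and day 20 sample 2 (1.08) at one end and day 20 sample 3 (-0.80) at the other (root mean square deviation in log2 CPM, signed). Genes at both ends were picked after their values were seen. KLK2, a secreted serine protease, had 354, 9.29 and 13.2 CPM on day 10 and 11334, 15.9 and 5636 CPM on day 20. ALB, which encodes serum albumin, had 456, 20.2 and 86 CPM on day 10 and 2672, 4.55 and 839 CPM on day 20. Within each day both were highest in the sample at the first end, and on day 20 both were lowest in sample 3. At the other end, OGN, which encodes the matrix proteoglycan osteoglycin, had 4.69, 166 and 73.5 CPM on day 10 and 23.6, 944 and 326 CPM on day 20. STC1, which encodes the secreted glycoprotein stanniocalcin, had 2.68, 235 and 84.4 CPM on day 10 and 78.1, 1078 and 418 CPM on day 20. Within each day these 2 were lowest in the sample at the first end, and they were highest of all in day 20 sample 3. The counts of the leading gene groups are given below also without the samples at the ends of this axis.

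With edgeR's quasi-likelihood test, 0 of 13739 genes (0%) passed as differentially expressed genes (DEGs), for which P had to be below 0.01 with the FDR below 0.1. The smallest FDR was 0.813, and genes are therefore given below by their values, with log2 fold changes, day 20 over day 10, ± SE in brackets. A weaker rule, an unadjusted P under 0.05, was met by 743 genes and is used below to describe gene groups. Of these, 494 were higher on day 20 (3.6% of the genes tested) and 249 were lower (1.81%). DESeq2 gave 165 DEGs, 104 higher (0.757%) and 61 lower (0.444%), limma voom gave 0, and edgeR's fit of all 26 samples gave 22, 3 higher and 19 lower. In 922 genes (6.71%) all day 20 samples lay above all day 10 samples, and in 577 (4.2%) below them. In control samples of the same days, 2098 of 13478 genes (15.6%) were DEGs in edgeR's test, a count that ranged from 152 without day 20 control 2 to 3240 without day 20 control 3 and was 485 without day 20 control 1, 1190 without day 10 control 2 and 1381 without day 10 control 4. P-values measure the spread between the 3 dogs of each day. Of the genes tested, 4298 had a symbol, taken from the study's own lists of DEGs, which were partly drawn from these samples. Among them, 7% were higher and 3.77% lower at an unadjusted P under 0.05, and these shares are the background for the lists below. Of the genes with a symbol tested in control samples, 15.1% were DEGs with higher and 13.9% with lower values on day 20. In whole tissue, fewer cells of a type and less RNA per cell cannot be told apart.

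Of all genes tested, the 3 with the smallest P-values, L1CAM, GFPT2 and ITIH4, were lower on day 20. They head the 12 genes in each direction that are named here, which were chosen for a small P and for days that did not overlap, so that their separation is a description. L1CAM, a neural cell adhesion molecule, had 49.8, 46.6 and 97.3 CPM on day 10 and 3.8, 2.11 and 3.5 CPM on day 20. All day 20 samples lay far below all day 10 samples (-4.36 ± 0.55; edgeR FDR = 0.813). GFPT2, which starts the hexosamine pathway, had 1069, 1021 and 982 CPM on day 10 and 147, 121 and 186 CPM on day 20. Its day 10 samples lay within a narrow range, and the log2 fold change was -2.75 ± 0.41. ITIH4, a secreted protein of the inter-alpha-trypsin inhibitor family, had 352, 415 and 621 CPM on day 10 and 52.5, 16.6 and 46.2 CPM on day 20, and its groups were also apart (-3.59 ± 0.59). The transporter of aromatic amino acids SLC16A10 had 23.1, 36 and 33.2 CPM on day 10 and 5.53, 3.06 and 5.65 CPM on day 20 (-2.69 ± 0.47). In each of these 4 genes, day 20 sample 3 had the lowest value of all.

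The other 8 of the 12 lower genes included a receptor, an ectoenzyme and secreted proteins. The alpha-2A adrenergic receptor ADRA2A had 23.7, 9.48 and 21.5 CPM on day 10 and 1.63, 2.3 and 3.12 CPM on day 20 (-2.93 ± 0.56). NT5E, the ectonucleotidase that forms adenosine, had 87.3, 187 and 133 CPM on day 10 and 9.6, 14.3 and 30.1 CPM on day 20 (-2.90 ± 0.60). FSTL3, a secreted inhibitor of activin, had 66.1, 19 and 18.5 CPM on day 10 and 3.04, 1.63 and 3.99 CPM on day 20 (-3.56 ± 0.70). In FSTL3, day 10 sample 1 was well above the other samples of its day. PLVAP, a protein of endothelial fenestrae, had 13.1, 3.68 and 10.6 CPM on day 10 and 1.09, 0.431 and 0.974 CPM on day 20 (-3.44 ± 0.69). FNDC1, a fibronectin domain protein, had 125, 45 and 41.8 CPM on day 10 and 9.33, 3.78 and 7.79 CPM on day 20 (-3.32 ± 0.64). The oxidative stress response gene OSGIN1 had 36.7, 15 and 21.9 CPM on day 10 and 4.29, 4.74 and 4.87 CPM on day 20 (-2.39 ± 0.49). The day 20 samples of OSGIN1 lay within a narrow range below all day 10 samples. SUPT3H, a subunit of a transcription coactivator, had 110.3, 273 and 234 CPM on day 10 and 42.1, 20.3 and 36.2 CPM on day 20 (-2.65 ± 0.54). TTLL2, of the tubulin tyrosine ligase family, had 1.64, 2.32 and 0.55 CPM on day 10 and 0.0543, 0.0479 and 0.0487 CPM on day 20, where each day 20 value rested on 1 read. L1CAM, GFPT2, SLC16A10, FSTL3 and TTLL2 passed both thresholds in the fit of all 26 samples, and all 12 genes named here did with DESeq2. In control samples 12 of the 12 genes also had a negative log2 fold change. Of these, 8 had control days without overlap and 6 were control DEGs, among them L1CAM (-2.82), GFPT2 (-1.90) and ITIH4 (-3.09). SLC16A10 (-0.49), PLVAP, SUPT3H and NT5E overlapped between the control days.

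Among genes higher on day 20, the orphan nuclear receptor NR4A1 had 9.38, 27.1 and 24.8 CPM on day 10 and 120.1, 265 and 209 CPM on day 20. The lowest day 20 value was above the highest day 10 value, and the log2 fold change was 3.28 ± 0.60 (FDR = 0.813). ERRFI1, a feedback inhibitor of the EGF receptor, had 12.4, 28 and 26 CPM on day 10 and 79.2, 267 and 157 CPM on day 20 (2.93 ± 0.62). SMOC2, a secreted matrix protein that binds calcium, had 288, 288 and 308 CPM on day 10 and 1415, 1543 and 688 CPM on day 20 (2.05 ± 0.46). The day 10 samples of SMOC2 were nearly equal, and day 20 sample 4 was the lowest of its day. COL4A6, a chain of basement membrane collagen, had 11.3, 15.1 and 13.1 CPM on day 10 and 47.5, 56.1 and 36.2 CPM on day 20 (1.83 ± 0.41). VIPR2, a receptor for vasoactive intestinal peptide, had 0.548, 0.709 and 0.55 CPM on day 10 and 7.33, 3.69 and 5.7 CPM on day 20 (3.20 ± 0.56). THSD4, a protein of microfibrils, had 3.35, 5.87 and 3.58 CPM on day 10 and 16.7, 20.7 and 14.7 CPM on day 20 (2.03 ± 0.46). In these 3 the day 10 samples lay close together, below every day 20 sample. The hedgehog effector GLI2 had 1.16, 2.19 and 1.47 CPM on day 10 and 9.44, 7.9 and 5.11 CPM on day 20 (2.22 ± 0.53), and TLE2, a transcriptional corepressor, had 2.31, 3.8 and 2.29 CPM on day 10 and 14.1, 15.6 and 8.37 CPM on day 20 (2.18 ± 0.50). SLC27A2, which activates long-chain fatty acids, had 2.07, 1.87 and 2.84 CPM on day 10 and 56.8, 4.36 and 35.1 CPM on day 20 (3.81 ± 0.89). Day 20 sample 3 of SLC27A2 lay only slightly above the day 10 samples. The remaining 3 of the 12, SLC35F1, IFGGC1 and KIRREL3, had no more than 10.5 CPM in any treated sample. With DESeq2, 11 of the 12 passed both thresholds, the exception being KIRREL3. In control samples, 11 of the 12 were tested, all but KIRREL3, and 3 had the same sign, SLC27A2 (4.91), a control DEG, VIPR2 (1.76) and IFGGC1 (0.44). The others had a negative sign, among them SMOC2 with 475, 638 and 278 CPM on day 10 and 149.8, 234 and 224 CPM on day 20, also a control DEG.

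**Figure D2:**
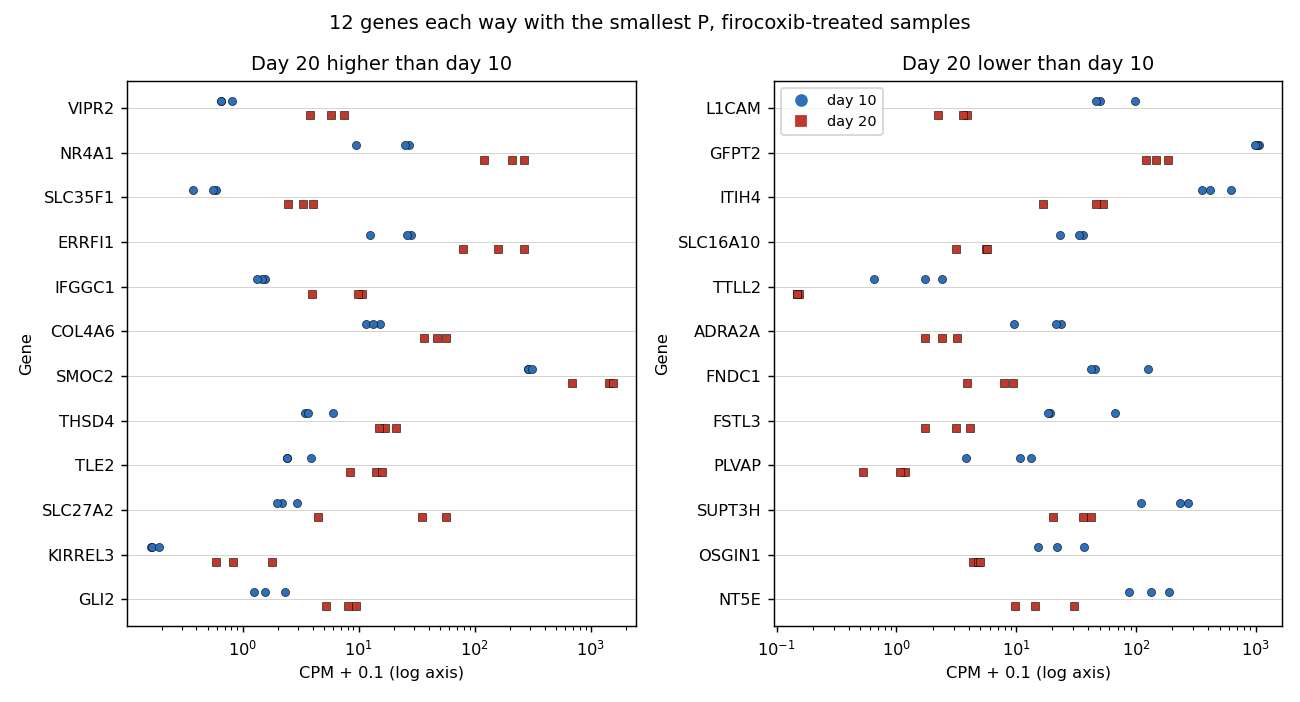
CPM plus 0.1 on a log axis for the 12 genes in each direction with the smallest P among genes with a symbol and no overlap between days. Each circle is a day 10 and each square a day 20 sample of treated dogs, and the genes were chosen for this separation.

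Immediate-early genes encode transcription factors and regulators that cells transcribe within a short time of a stimulus such as a growth factor or a hormone. Of the 32 genes of this list, 22 had a symbol and were tested. At an unadjusted P under 0.05, 15 were higher on day 20 and 0 were lower, and 7 passed both thresholds with DESeq2. Their median log2 fold change was 1.80, beside -0.02 for all genes tested. In 13 of the 22 all day 20 samples lay above all day 10 samples, beside 6.71% of all genes tested. ATF3, a stress-responsive transcription factor, had 55.4, 97.8 and 65.6 CPM on day 10 and 157, 525 and 417 CPM on day 20 (2.34 ± 0.57). The zinc finger factor EGR2 had 1.1, 5.29 and 8.57 CPM on day 10 and 22.6, 82.2 and 49.1 CPM on day 20 (3.36 ± 0.85). EGR1, its relative with the most reads of the list, had 105, 544 and 556 CPM on day 10 and 1009, 3094 and 2369 CPM on day 20 (2.43 ± 0.76). In all 3, day 10 sample 1 was the lowest of its day and day 20 sample 2 the lowest of its day, and the groups did not overlap. The members FOS, JUNB, MYC and FOSB are given for their roles, chosen after their values were seen. FOS, a subunit of AP-1, had 169, 504 and 501 CPM on day 10 and 507, 1897 and 1652 CPM on day 20. Its partner JUNB had 35.7, 25 and 18.1 CPM on day 10 and 53.1, 60 and 48.5 CPM on day 20. The growth regulator MYC had 40.4, 72.4 and 69.4 CPM on day 10 and 109, 415 and 351 CPM on day 20. FOSB, another AP-1 subunit, had 20, 91.5 and 101 CPM on day 10 and 140.1, 965 and 674 CPM on day 20. For FOS, the lowest day 20 sample barely exceeded the highest day 10 samples, whereas samples 3 and 4 lay well above. FOS and JUNB met the weaker rule in 2 of 6 fits without 1 treated sample, and MYC and FOSB in all of them. FOSL1, the only member with a negative log2 fold change, was under 1 CPM in all 6 samples. The summed level of the 22 genes was 1080.3, 2061 and 2354 CPM on day 10 and 3611, 10499.5 and 8137 CPM on day 20, so the days were apart as a whole and day 20 sample 3 was the highest.

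In control samples the same 22 genes had a median log2 fold change of -1.27, and 7 were DEGs, all lower on day 20, beside 13.9% of the genes with a symbol. NR4A1 had 10.9, 44.2 and 63.8 CPM on day 10 and 3.16, 12.1 and 17.8 CPM on day 20, so that its treated day 20 samples lay above all samples of the other groups. JUNB had 31.1, 29.2 and 50.7 CPM on day 10 and 1.17, 3.46 and 7.73 CPM on day 20. The difference between the treated and the control change, tested as an interaction of treatment with day, had an unadjusted P under 0.05 for 20 of the 22 genes, all with a higher treated change, beside 16.9% of the genes with a symbol, with 0.149 as the smallest FDR of any gene. When 1 treated sample was left out, between 10 (without day 20 sample 4) and 17 (without day 20 sample 2) of the 22 genes met the weaker rule as higher, and without day 10 sample 1 and day 20 sample 2 together 20 did. The symbols of this list come from the study's DEG lists, so the count is not independent of these samples.

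**Figure D3:**
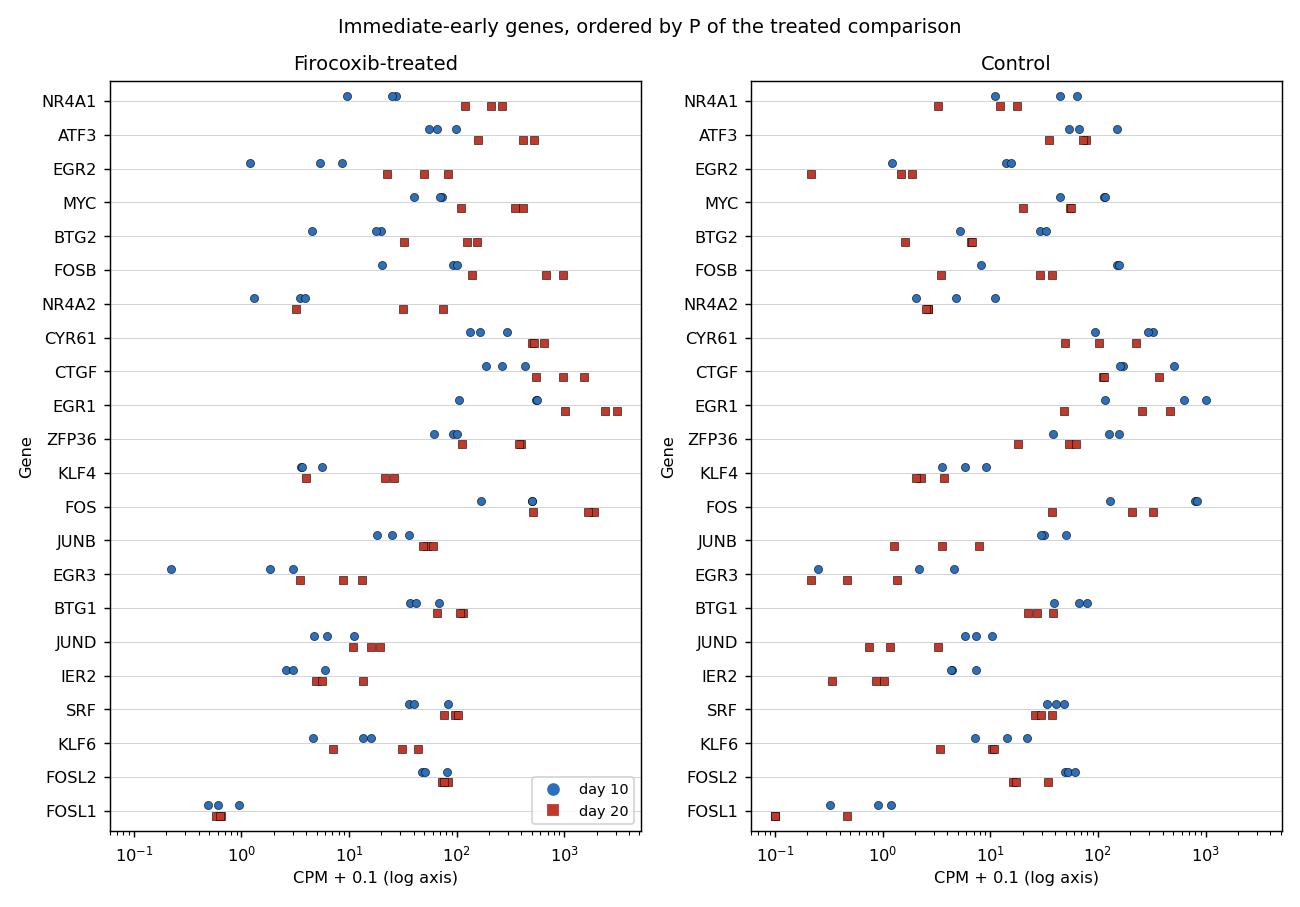
CPM plus 0.1 on a log axis for the 22 immediate-early genes in treated (left) and control (right) samples, with circles for day 10 and squares for day 20. In treated dogs the squares lie mostly to the right of the circles, without overlap in 13 genes, and in control dogs mostly to the left.

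Genes of NF-kB signalling and inflammation, led by ICAM1, were higher on day 20 in some members. Of 35 tested, 7 were higher and 2 lower at an unadjusted P under 0.05, and 3 were higher at both thresholds with DESeq2. ICAM1, an adhesion molecule for leukocytes, had 37.8, 34.8 and 39.8 CPM on day 10 and 62.1, 336 and 345 CPM on day 20 (2.75 ± 0.68). Day 20 samples 3 and 4 were far above day 10, and sample 2 lay nearer to it. CXCL10, a chemokine for T cells, had 0.365, 1.42 and 0.642 CPM on day 10 and 3.2, 15.1 and 1.9 CPM on day 20 (3.06 ± 0.97). IL1RN, the antagonist of the interleukin 1 receptor, had 9.5, 10.5 and 16.7 CPM on day 10 and 16.6, 67.2 and 48.1 CPM on day 20 (1.86 ± 0.61). The groups overlapped for IL1RN by day 20 sample 2. NFKBIA, which holds NF-kB in the cytoplasm and is one of its targets, had 97.7, 57.3 and 70.9 CPM on day 10 and 115, 177 and 222 CPM on day 20 (1.21 ± 0.44). C3, the complement component with the most reads of the list, had 1089, 3066 and 1666 CPM on day 10 and 923, 1774 and 1354 CPM on day 20 (-0.51 ± 0.54, outside the weaker rule). The 2 lower genes, OSMR and IL10, encode the oncostatin M receptor and an anti-inflammatory cytokine. IRF1, an interferon-induced transcription factor, had 56.8, 23.3 and 30.1 CPM on day 10 and 62.2, 223 and 265 CPM on day 20 (2.35 ± 0.66) and IRF8, of the same family, 14.8, 12.4 and 37 CPM on day 10 and 8.09, 9.57 and 7.11 CPM on day 20 (-1.37 ± 0.55), and they were the 2 members of 5 interferon genes under this P. CXCL10 and IL1RN met the weaker rule in 4 of 6 fits without 1 treated sample, NFKBIA in 3 and IRF8 in 2, while ICAM1 and IRF1 met it in all of them. OSMR met it in 2 and IL10 in 0 of these fits. The count of higher NF-kB and inflammatory genes was 14 without day 20 sample 2, 4 without day 20 sample 3 or day 10 sample 5, 3 without day 20 sample 4 or day 10 sample 4, and 16 without both day 10 sample 1 and day 20 sample 2. Of 9 macrophage and monocyte genes, 0 were higher and 0 lower, and their summed level was 350.2, 308 and 331 CPM on day 10 and 273, 245 and 196 CPM on day 20, lower in every day 20 sample. In control samples this sum was 276, 310 and 377 CPM on day 10 and 137, 166 and 178 CPM on day 20. There, 5 of the 9 were DEGs, all lower on day 20, beside 13.9% of the genes with a symbol.

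Transcripts of oocytes, cells of the follicles that surround a CL, were higher on day 20 in 7 genes. Of 16 such genes tested, 7 were higher at an unadjusted P under 0.05 and 0 lower, and 3 passed both thresholds with DESeq2. In 12 of them all day 20 samples lay above all day 10 samples, beside 6.71% of all genes tested. The median log2 fold change was 2.36. ZP2, a protein of the zona pellucida, had 1.16, 11.4 and 10.7 CPM on day 10 and 42.9, 75.4 and 51.8 CPM on day 20 (2.87 ± 0.82). PNLDC1, an exonuclease that trims piRNAs of germ cells, had 1.58, 7.03 and 5.73 CPM on day 10 and 16.4, 31.4 and 26 CPM on day 20 (2.37 ± 0.65). ZAR1, a maternal-effect gene, had 0, 0.193 and 0.458 CPM on day 10 and 2.28, 2.63 and 3.07 CPM on day 20. All day 20 samples lay above all day 10 samples, and day 10 sample 1 was the lowest. GDF9 and BMP15, growth factors secreted by the oocyte, are added for their role. GDF9 had 3.04, 13.8 and 9.49 CPM on day 10 and 29, 47 and 33 CPM on day 20. BMP15 had 0, 26.1 and 12 CPM on day 10 and 41, 84.8 and 67.2 CPM on day 20 (outside the weaker rule). KIT, the member with the most reads and one that other ovarian cells also express, had 57.5, 42.5 and 37.3 CPM on day 10 and 28.9, 18.4 and 49.6 CPM on day 20 (-0.49 ± 0.49). The summed level of the list was 63.6, 124 and 97.7 CPM on day 10 and 223, 360.5 and 313 CPM on day 20. In control samples ZP2 had 26.9, 31 and 0.858 CPM on day 10 and 0.761, 6.02 and 3.25 CPM on day 20, and 11 of the list were DEGs, all lower on day 20, beside 13.9% of the genes with a symbol. ZP2 was thus highest in the 3 treated day 20 samples and low in 1 sample of each day 10 group and in the day 20 controls. The count of higher oocyte genes was 12 without day 10 sample 1, 4 without day 20 sample 3, and 13 without both day 10 sample 1 and day 20 sample 2. In the fit of all 26 samples it was 3. Of the 31 genes of this list, only the 16 on the study's DEG lists had a symbol. The treated and control counts are therefore not independent of these samples. The part of follicle tissue in the other results was not tested.

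The TGF-beta family and other growth factors held genes of both directions. NODAL, a ligand of activin receptors that is also on the study's list of candidates, had 0.487, 3.8 and 1.6 CPM on day 10 and 9.17, 15.6 and 15.7 CPM on day 20 (2.78 ± 0.77). LTBP1, which tethers latent TGF-beta to the matrix, had 96.2, 178 and 151 CPM on day 10 and 254, 631 and 420.2 CPM on day 20 (1.63 ± 0.51). Both were higher in every day 20 sample. TGFBR3, the co-receptor with the most reads of the list, had 153, 746 and 489 CPM on day 10 and 227, 1574 and 803 CPM on day 20 (0.92 ± 0.82, outside the weaker rule), with overlap. Of 22 members, 3 were higher and 2 lower at an unadjusted P under 0.05, the inhibitors FSTL3 and GREM1 being the lower ones, the latter in 3 of 6 fits without 1 treated sample. The count of higher members was 5 without day 10 sample 1 and 6 without day 20 sample 2. The receptor EGFR had 158, 164 and 191 CPM on day 10 and 44.9, 55 and 74.8 CPM on day 20 (-1.54 ± 0.41). Its day 10 samples were tight and all above day 20, in the opposite direction to its inhibitor ERRFI1. NOTCH2, a receptor of neighbouring cells' ligands, had 79.9, 172 and 157 CPM on day 10 and 327, 719.5 and 465 CPM on day 20 (1.89 ± 0.52). IGFBP3, a carrier of insulin-like growth factors, had 5.36, 4.19 and 5.64 CPM on day 10 and 21.3, 26.9 and 6.72 CPM on day 20 (1.86 ± 0.59), and IGFBP7, the member with the most reads, 7295, 3487 and 4172 CPM on day 10 and 3992, 366 and 1805 CPM on day 20 (-1.28 ± 0.80, outside the weaker rule). Of 26 growth factor genes, 5 were higher and 2 lower, and the count of higher ones was 2 without day 10 sample 5 and 3 without day 10 sample 4 or day 20 sample 3, the 2 fits in which IGFBP3 did not meet the rule.

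Among the luteal markers and the steroid synthesis genes, no member had an unadjusted P under 0.05. Of 10 luteal markers, 4 had a symbol, and STAR, CYP11A1 and the 3-beta-hydroxysteroid dehydrogenases were not analysed here. FDX1, which feeds electrons to the side-chain cleavage of cholesterol, had 1397, 1499.7 and 1351 CPM on day 10 and 674, 38.3 and 640.1 CPM on day 20 (-1.65 ± 0.89, outside the weaker rule). All day 20 values were lower, and sample 3 was far under the others. INHA, the alpha subunit of inhibin, had 705, 266 and 256 CPM on day 10 and 187, 30.3 and 197 CPM on day 20 (-1.55 ± 0.76, outside the weaker rule). The LH receptor LHCGR had 9.32, 35.6 and 24.4 CPM on day 10 and 15.1, 119.7 and 56.8 CPM on day 20 (1.48 ± 0.81, outside the weaker rule), highest in day 20 sample 3. The summed level of the 4 markers, PRLR included, was 2232, 2039 and 1884 CPM on day 10 and 974, 312 and 1059 CPM on day 20. Of 11 steroid synthesis genes, 0 were higher and 0 lower, with a median log2 fold change of -0.03. This median was 0.44 without day 20 sample 3, when 1 gene was lower under that P, and -0.61 without day 10 sample 1 and day 20 sample 2. Aromatase (CYP19A1), added for its role, had 472, 717 and 332 CPM on day 10 and 340.1, 114 and 1018 CPM on day 20, with overlap. SULT1E1, which inactivates estrogen, had 0, 0.645 and 0.229 CPM on day 10 and 0.488, 1.44 and 2.92 CPM on day 20 (outside the weaker rule). HSD17B1, which forms estradiol, had 0.487, 2.19 and 1.01 CPM on day 10 and 3.47, 3.16 and 2.09 CPM on day 20 (outside the weaker rule). FSHR, the hormone receptor with the most reads, had 673, 1390.5 and 1985 CPM on day 10 and 628, 251 and 530.3 CPM on day 20 (-1.53 ± 0.58). All day 20 samples of FSHR lay below all day 10 samples, and it alone of 9 receptors had a P under 0.05, which it no longer had without day 10 sample 4 or 5 or day 20 sample 3 or 4. The insulin receptor INSR had 13.9, 10.4 and 22.1 CPM on day 10 and 23, 35.7 and 32.4 CPM on day 20 (0.98 ± 0.46, outside the weaker rule).

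Cholesterol genes had negative log2 fold changes in 15 of 15 members, with a median of -0.87, and 1 was lower at an unadjusted P under 0.05. That gene was SOAT1, which esterifies cholesterol for storage, with 64.7, 591 and 423 CPM on day 10 and 26.9, 82 and 139 CPM on day 20 (-2.11 ± 0.90). It no longer met the weaker rule without day 10 sample 4 or 5 or day 20 sample 2 or 3. CYP51A1, the lanosterol demethylase, had 217, 586 and 398 CPM on day 10 and 125, 35.1 and 257 CPM on day 20 (-1.52 ± 0.75, outside the weaker rule). For CYP51A1, day 20 sample 4 lay within the range of day 10 and sample 3 far below it. The summed level of the 15 genes was 5810.1, 6674 and 4575 CPM on day 10 and 3758, 425 and 4009.9 CPM on day 20. Without day 20 sample 3 the median was -0.37, and without day 10 sample 1 and day 20 sample 2 it was -1.12. In control samples it was 0.77, and 4 of the genes were DEGs, all higher on day 20. The interaction had an unadjusted P under 0.05 for 3 genes, all with a lower treated change, beside 7.2% of the genes with a symbol. Without day 10 sample 1 and day 20 sample 2 this count was 6, beside 15.5%, and 1 passed both thresholds. Of the genes with a symbol, 15.1% were control DEGs with higher values on day 20. Of 12 genes of fatty acids and lipid storage, 11 had negative log2 fold changes (median -0.54, and -0.26 without day 20 sample 3), 0 with an unadjusted P under 0.05, and 6 had such a P in the interaction, again all with a lower treated change. With edgeR, 0 of these 12 passed both thresholds in the interaction, also without day 10 sample 1 and day 20 sample 2. SCD, which desaturates fatty acids, had 1480.4, 1386 and 1559 CPM on day 10 and 882, 119 and 1158 CPM on day 20 (-1.03 ± 0.74, outside the weaker rule) in treated and 1008, 829 and 929 CPM on day 10 and 1806, 2522 and 2318 CPM on day 20 in control samples. CPT1A, which admits fatty acids to mitochondria, had 445, 363 and 670.0 CPM on day 10 and 345, 164 and 417 CPM on day 20 (-0.67 ± 0.50, outside the weaker rule).

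**Figure D4:**
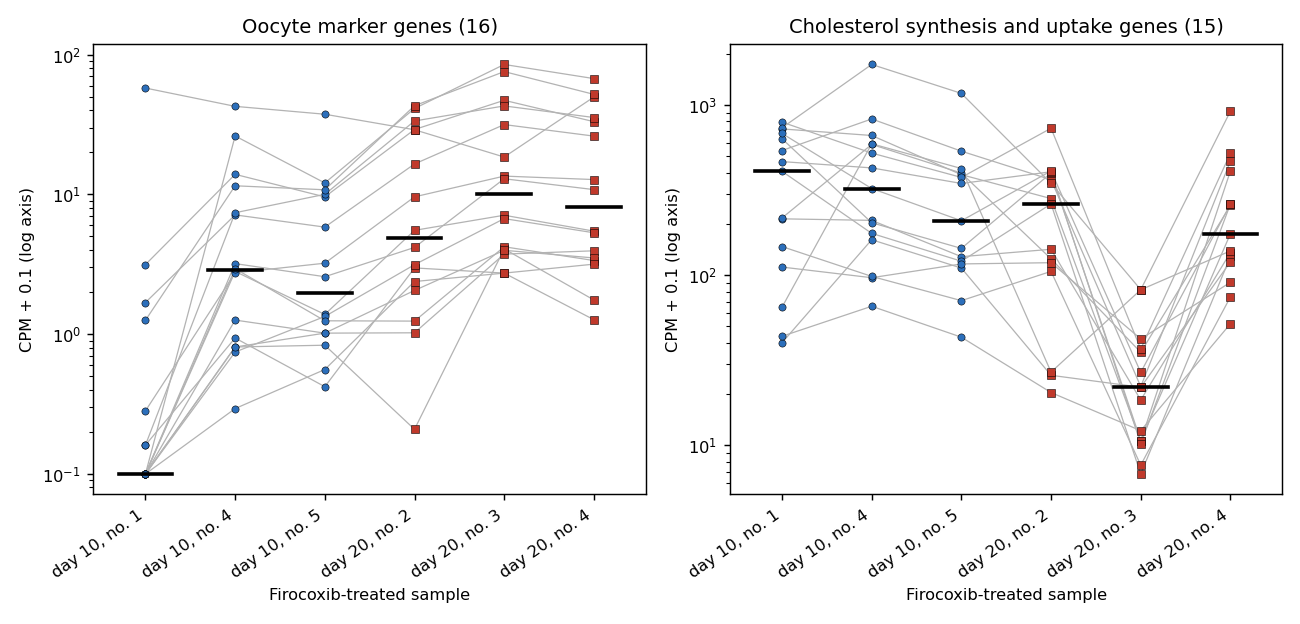
CPM plus 0.1 on a log axis for 16 oocyte markers (left) and 15 cholesterol genes (right) in each treated sample, with 1 grey line per gene and a black bar at the median of the sample. The median of the oocyte genes is lowest in day 10 sample 1, and that of the cholesterol genes in day 20 sample 3, while single genes such as KIT and SOAT1 have other orders.

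Of the 15 genes of the prostaglandin axis, 1 was higher and 2 were lower at an unadjusted P under 0.05. Among the genes with a symbol, 7% were higher and 3.77% lower. PTGDS, the lipocalin-type prostaglandin D synthase, had 25.6, 53.4 and 21.3 CPM on day 10 and 211, 141 and 49.4 CPM on day 20 (2.0 ± 0.65), with overlap by day 20 sample 4. PTGIS, the prostacyclin synthase, had 241, 148 and 552 CPM on day 10 and 90.4, 133 and 83.2 CPM on day 20 (-1.61 ± 0.58), without overlap. HPGDS, the hematopoietic prostaglandin D synthase, had 0.0609, 2 and 1.65 CPM on day 10 and 0, 0.144 and 0.0487 CPM on day 20 and was as low in day 10 sample 1 as on day 20. In fits without 1 treated sample, PTGDS met the weaker rule in 5 of 6, HPGDS in 4 and PTGIS in 3. The target of the drug, PTGS2, had 11.8, 154 and 77.6 CPM on day 10 and 3.09, 30.4 and 67.9 CPM on day 20 (outside the weaker rule) and no separation of the days. It is given for its role, and a transcript level says nothing of the enzyme's activity. AKR1B1, a prostaglandin F synthase with the most reads of the list, had 5838, 1523 and 6505 CPM on day 10 and 1603, 102 and 1526 CPM on day 20 (-2.10 ± 1.0, outside the weaker rule). The thromboxane synthase TBXAS1 had 5.97, 9.42 and 7.79 CPM on day 10 and 11.9, 41.8 and 8.28 CPM on day 20 (1.43 ± 0.68, outside the weaker rule), and PPARG, a nuclear receptor for fatty acids and prostaglandin derivatives, had 6.76, 15 and 12.5 CPM on day 10 and 9.39, 65.6 and 26.7 CPM on day 20 (1.58 ± 0.74, outside the weaker rule), both highest in day 20 sample 3.

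TIMP1, an inhibitor of metalloproteinases with the most reads of the matrix list, had 18893, 8050.3 and 6727 CPM on day 10 and 1233, 91.9 and 848 CPM on day 20 (-3.94 ± 0.98). The groups were far apart, and it passed both thresholds with DESeq2 and in the fit of all 26 samples. ADAMTS4, which cleaves proteoglycans, had 16.6, 11.9 and 7.75 CPM on day 10 and 36.7, 41.7 and 50.5 CPM on day 20 (1.85 ± 0.45), in the opposite direction. The metalloproteinase MMP11 had 14.9, 5.87 and 7.61 CPM on day 10 and 29.9, 58.6 and 14.1 CPM on day 20 (1.87 ± 0.64). COL1A2, a chain of type I collagen and the fibroblast marker with the most reads, had 1498, 3875 and 2699 CPM on day 10 and 6534, 5194 and 6439 CPM on day 20 (1.17 ± 0.50), without overlap. Of 30 matrix genes, 3 were higher and 1 lower at an unadjusted P under 0.05, beside 7% and 3.77% of the genes with a symbol. Without day 10 sample 5, 1 was higher. Without both day 10 sample 1 and day 20 sample 2, 2 were higher and 3 lower. Of 11 fibroblast markers, 2 were higher, the other being MFAP5 with 6.94, 20.2 and 15.8 CPM on day 10 and 22.2, 84.2 and 34.3 CPM on day 20 (1.72 ± 0.66), and the summed level was 4369.9, 9635 and 7339 CPM on day 10 and 12206, 10004 and 13478 CPM on day 20. Every day 20 sum was thus above every day 10 sum. Of the 11 markers, 8 had positive and 3 negative log2 fold changes. Among the latter was FAP (-1.43 ± 0.70, outside the weaker rule), with overlap. Without day 10 sample 1 and day 20 sample 2, 1 marker was higher and 2 were lower at an unadjusted P under 0.05. MYH11, a myosin of smooth muscle, had 80.9, 88.9 and 69.2 CPM on day 10 and 298, 266 and 149.5 CPM on day 20 (1.58 ± 0.43) and was alone among 11 smooth muscle and pericyte markers under this P. Of 7 endothelial markers, 1, PLVAP, was lower, and the summed level was 1770.0, 649.8 and 1042 CPM on day 10 and 1414, 489 and 1101 CPM on day 20. The granulosa markers had 2 lower of 10, FSHR and TNFAIP6, and 0 without day 20 sample 3. COL1A2 met the weaker rule in 1 of 6 fits without 1 treated sample, MFAP5 in 2, MMP11 in 3 and TNFAIP6 in 1. Of 3 theca markers 1 was higher, the hedgehog target GLI1, which had 0.974, 3.93 and 3.67 CPM on day 10 and 11.5, 12.6 and 9.93 CPM on day 20 (1.99 ± 0.62). The part of these cell types in the results above was not tested.

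In the vascular, metabolic and cell cycle lists, the counts under the P stand beside 7% higher and 3.77% lower among the genes with a symbol. THBS2, a thrombospondin that inhibits angiogenesis, had 102, 94.9 and 102 CPM on day 10 and 267, 198 and 137 CPM on day 20 (1.01 ± 0.41), without overlap. THBS1, its relative, had 32.8, 259 and 316 CPM on day 10 and 202, 1103 and 620.3 CPM on day 20 (1.67 ± 0.91, outside the weaker rule). THBS2 alone was under this P among 20 angiogenesis and hypoxia genes. It kept this P in 1 of 6 fits without 1 treated sample, the one without day 20 sample 4. EDNRB, the endothelin receptor B, had 1039, 3575 and 3067 CPM on day 10 and 391, 23.9 and 1297 CPM on day 20 (-2.16 ± 1.18, outside the weaker rule), lowest in day 20 sample 3. Among 9 glycolysis genes, the glucose transporter SLC2A3 had 42.9, 73.6 and 97.8 CPM on day 10 and 105, 399.9 and 337 CPM on day 20 (1.98 ± 0.62), higher on day 20, and the isomerase TPI1 had 4812, 2539 and 3076 CPM on day 10 and 1510.4, 209 and 902 CPM on day 20 (-1.99 ± 0.72), lower on day 20, a difference that TPI1 kept under this P in 3 of 6 fits without 1 treated sample. Of 32 cell cycle genes, 1 was lower and 0 were higher. The lower one, the inhibitor of cyclin-dependent kinases CDKN2C, had 126, 68.9 and 71.3 CPM on day 10 and 34, 24.5 and 22.1 CPM on day 20 (-1.71 ± 0.44), with no overlap. The replication helicase subunit MCM2 had 13.2, 9.67 and 10.7 CPM on day 10 and 29.4, 16.5 and 17.9 CPM on day 20 (0.93 ± 0.43, outside the weaker rule) in treated and 14, 12.4 and 11.8 CPM on day 10 and 2.46, 3.16 and 6.34 CPM on day 20 in control samples. In controls, 11 of the 32 were DEGs with lower values on day 20, beside 13.9% of the genes with a symbol.

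The 57 cytosolic ribosomal protein genes with a symbol all had positive log2 fold changes, from 0.02 to 0.95, with 0 under an unadjusted P of 0.05. RPL23 had 352, 708 and 389 CPM on day 10 and 853, 1032 and 677 CPM on day 20 (outside the weaker rule), RPL14 had 323, 479 and 303 CPM on day 10 and 644, 662 and 510.0 CPM on day 20 (outside the weaker rule), and RPS4X, with the most reads, had 1882, 3165 and 1531 CPM on day 10 and 3036, 3587 and 2673 CPM on day 20 (outside the weaker rule). In control samples the median was -1.27 and 43 were DEGs, all lower on day 20, beside 13.9% of the genes with a symbol. The interaction had an unadjusted P under 0.05 for 51 of the 57 genes, all with a higher treated change, beside 16.9% of the genes with a symbol. Without day 10 sample 1 and day 20 sample 2 this count was 51, beside 23.6%, and 3 passed both thresholds. The symbols of these 57 genes come from the study's DEG lists, so their signs and counts are not independent of these samples. Reads of ribosomal protein genes can be shared with their processed copies, so these values are uncertain.

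The list of candidate genes held 21 symbols, the targets of the study's qPCR and PTK2, a reference gene of that assay, of which 18 were tested here. At an unadjusted P under 0.05, 5 were higher on day 20, NR4A1, ICAM1, NODAL, PTGDS and NFKBIA, and 0 were lower. The count was 9 without day 20 sample 2 and 3 without day 10 sample 5. The study chose candidates on these samples, so their direction is not independent evidence. The tryptophan-degrading enzyme IDO1 had 0.487, 3.35 and 2.25 CPM on day 10 and 0.814, 1.82 and 2.48 CPM on day 20 (-0.24 ± 0.81), the steroid dehydrogenase HSD17B7 60.8, 36.6 and 37.5 CPM on day 10 and 48.7, 7.52 and 40.6 CPM on day 20 (-0.47 ± 0.67), and the receptor TGFBR1 63, 508 and 331 CPM on day 10 and 26.3, 163 and 185 CPM on day 20 (-1.26 ± 0.91), all with overlapping days.

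**Figure D5:**
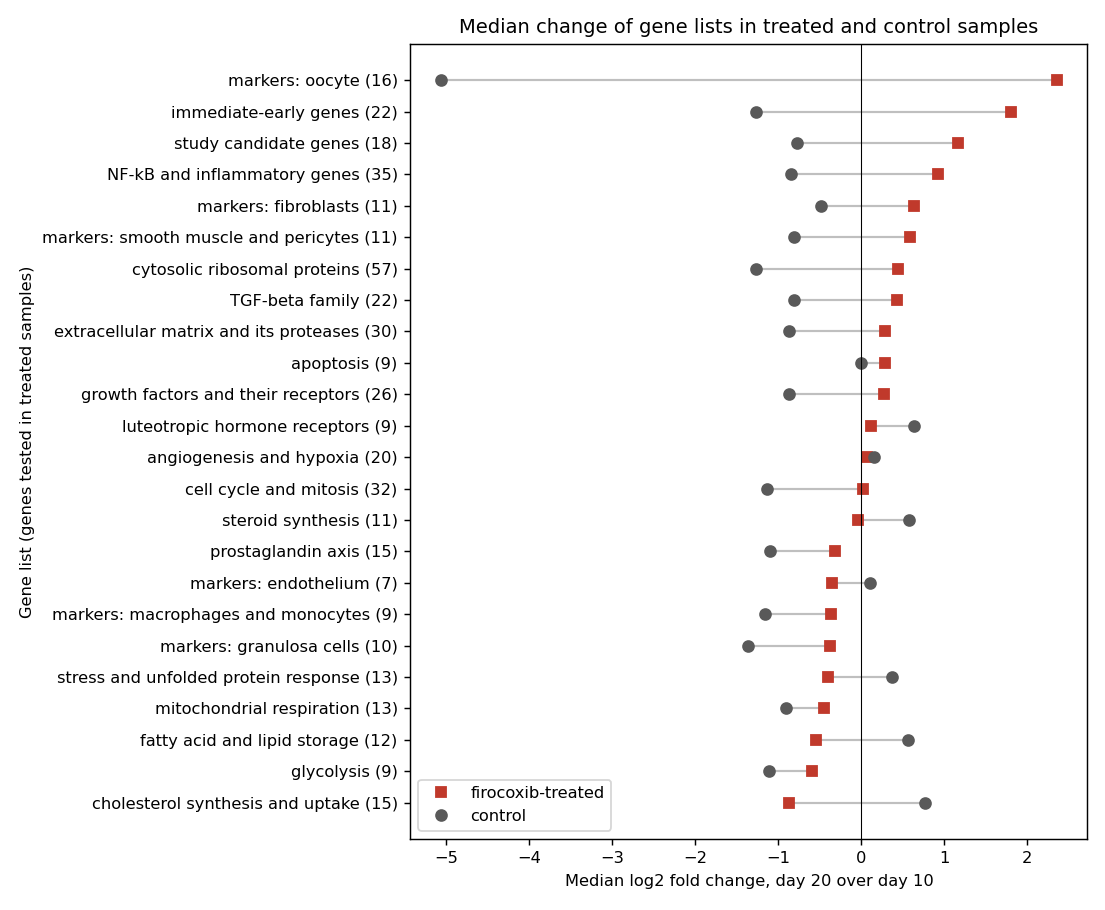
Median log2 fold change, day 20 over day 10, of each gene list with at least 7 genes tested, as squares for treated and circles for control dogs, with the number of genes tested in brackets. Oocyte and immediate-early genes lie to the right in treated and to the left in control dogs, and cholesterol genes the reverse. All members have a symbol from the study's DEG lists, which were partly drawn from these samples.

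The change in treated dogs was also set against that in control dogs, which share no samples. In the interaction test, 0 of 13907 genes (0%) passed both thresholds with edgeR, 1483 (10.7%, and 24.1% of the genes with a symbol) met the weaker rule, and DESeq2 called 567 (4.08%). Without day 10 sample 1 and day 20 sample 2, 605 genes (4.34%) passed both with edgeR, 382 with a higher and 223 with a lower treated change. Leaving out these 2 was chosen after their correlation was seen. Of the genes with a symbol, 7.38% were among those with a higher and 3.6% among those with a lower treated change. The lists with 6 or more genes past both thresholds had, with a higher treated change, 14 of 22 immediate-early, 12 of 16 oocyte, 9 of 35 NF-kB and inflammatory, 8 of 18 candidate, 7 of 22 TGF-beta family and 6 of 32 cell cycle genes. In these lists, 2 NF-kB and inflammatory genes and 1 TGF-beta family gene had a lower treated change. Some genes are in more than 1 list, and all have their symbols from the study's DEG lists, partly drawn from these samples. The treated comparison itself still had 0 DEGs without them, and 1198 genes (8.71%) higher and 771 (5.6%) lower at an unadjusted P under 0.05.

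Genes with the smallest interaction P are named here among those with a symbol only. With a higher treated change these were MYL2, a myosin light chain of muscle, the Wnt receptor ROR2, SHISA2, C6orf52 and the ephrin receptor EPHB2. ROR2 had 4.02, 4.97 and 3.48 CPM on day 10 and 12.5, 17.9 and 11.1 CPM on day 20 in treated and 8.02, 6.34 and 4.06 CPM on day 10 and 1.35, 1.55 and 2.16 CPM on day 20 in control samples. The treated values were higher and the control values lower on day 20, each without overlap (interaction log2 3.59 ± 0.56; edgeR FDR = 0.149). SHISA2, an inhibitor of growth factor receptor maturation, had 7.43, 8 and 12.4 CPM on day 10 and 22.6, 58.7 and 26.8 CPM on day 20 in treated and 12.9, 20.2 and 11.7 CPM on day 10 and 4.57, 2.8 and 5.31 CPM on day 20 in control samples (FDR = 0.149). EPHB2 had 2.25, 2.58 and 1.42 CPM on day 10 and 6.67, 7.13 and 5.35 CPM on day 20 in treated and 3.9, 4.51 and 3.03 CPM on day 10 and 0.41, 0.536 and 1.24 CPM on day 20 in control samples (FDR = 0.149). MYL2 was at no more than 2.49 CPM in treated samples. With a lower treated change, KIF5C, a kinesin of axonal transport, had 17.3, 25 and 31.8 CPM on day 10 and 4.61, 2.82 and 8.76 CPM on day 20 in treated and 13.3, 22 and 17.7 CPM on day 10 and 39.9, 37.5 and 28.3 CPM on day 20 in control samples (interaction log2 -3.19 ± 0.61; FDR = 0.157). SHISA7, of the same family as SHISA2, had 5.72, 12.6 and 6.51 CPM on day 10 and 1.84, 2.49 and 1.9 CPM on day 20 in treated and 2.47, 2.28 and 2.74 CPM on day 10 and 3.63, 7.69 and 14.7 CPM on day 20 in control samples (FDR = 0.172). ACOT12, an acyl-CoA thioesterase, had 1.71, 2.06 and 2.43 CPM on day 10 and 1.9, 1.48 and 2.68 CPM on day 20 in treated and 0.3, 1.29 and 0.572 CPM on day 10 and 13.1, 4.11 and 9.28 CPM on day 20 in control samples (FDR = 0.182). Treated samples of ACOT12 overlapped between the days, while all day 20 controls were above day 10 controls. CTSL, a lysosomal protease whose symbol belongs to 2 identifiers, and HPGDS were the other 2.

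The genes that were DEGs between the days in control dogs were also followed in treated dogs. Of 1201 control DEGs that were higher on day 20 and tested in treated samples, 725 (60.4%) had the same sign there, with a median log2 fold change of 0.16 against 1.18 in controls. Of 872 that were lower, 539 (61.8%) had the same sign, with -0.28 against -1.46. Of the higher ones, 21 met the weaker rule in treated dogs with the same and 3 with the opposite sign, and of the lower ones 60 with the same and 55 with the opposite sign. Over all 13310 genes tested in both, 54.3% had the same sign, and Pearson's r across genes was 0.07, where genes are not independent replicates. The control medians come from the samples that chose the genes, so the medians of the 2 treatments are given side by side only. The mean log2 CPM of the higher control DEGs was 3.32, 5.08 and 4.88 in treated day 10 samples and 3.23, 5.12 and 5.01 in treated day 20 samples, against 4.63, 4.61 and 4.45 and 6.14, 5.96 and 5.44 in control samples. That of the lower ones was 4.69, 4.24 and 4.08 and 4.61, 3.88 and 4.03 in treated, against 4.63, 4.41 and 4.48 and 2.78, 2.96 and 3.47 in control samples. Day 10 sample 1 and day 20 sample 2 again had nearly the same value. The control means are also extreme by the choice of the genes, so the treated samples are not ranked against them.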

How the data were processed

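The authors trimmed CL from the ovary and made poly-A TruSeq libraries, sequenced from single ends. According to the labels and methods, STAR placed the reads on CanFam3.1 and featureCounts assigned them to genes; versions are not given in the sources used here, nor is strand use, so overlapping genes may share reads. The deposited values are raw counts of reads per gene, 1 file per sample. Symbols came from the study's DEG lists (4347 of 19856 genes), whose fold changes and P-values were not used.

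Genes averaging 10 or more reads in either group were tested in R 4.3.3 with edgeR 4.0.16 (TMM factors, quasi-likelihood, Benjamini-Hochberg FDR). CPM were scaled with factors of the 12 samples of days 10 and 20. DESeq2 1.42.0, the tool of the study, and limma voom 3.58.1 were alternatives, as were other filters, factors and sample sets and leaving out samples. The scripts were tested on simulated data. Named genes were, in each direction, the 12 with a symbol, no overlap and the smallest P; in each list, the 3 with the smallest P and the most abundant; the candidates; and 5 interaction genes in each direction. Genes added for their role, and those at the ends of the axis, were chosen after their values were seen. Members and lists were chosen with earlier results of these data known. Some members of the cholesterol list are not reported here by name.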

Additional observations from a re-analysis of the deposited data

How the results depend on the processing

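No paired analysis was possible because each sample came from a different bitch, whose ovaries were removed on her last day of treatment. A block by replicate number was not fitted to the treated days, which share only number 4. For the other comparisons, the replicate block left 0 DEGs in the interaction and 475 genes at an unadjusted P under 0.05, and 946 DEGs and 2421 genes at that P between the control days. Deviations of same-numbered samples correlated between -0.396 and 0.427, over 0.1 in 3 of 10 pairs. Differently numbered samples reached 0.822 (treated day 10 sample 1 with treated day 20 sample 2). These correlations therefore cannot show whether the numbers mark a pairing.

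The treated comparison had 165 DEGs with DESeq2, 168 with DESeq2 without its cutoffs and 22 in the fit of all 26 samples, and 0 with limma voom, RLE factors, no filter, filterByExpr, the fit of 13 treated samples and each sample left out. At an unadjusted P under 0.05 it had 1513 genes in the fit of all 26 samples, 1969 without day 10 sample 1 and day 20 sample 2, and 361 (without day 10 sample 5) to 1361 (without day 20 sample 2) with 1 sample left out. The interaction had 567 DEGs with DESeq2, 15 with no filter and 605 without those 2 samples. With 1 sample left out it had 0 to 24, the latter without day 10 control 4, and 11 without day 20 treated 2 and 4 without day 20 control 3. Its genes at an unadjusted P under 0.05 numbered 2956 without the 2 samples and 1060 to 2384 with 1 left out. Between the control days, DEGs ranged from 152 (without day 20 control 2) to 3240 (without day 20 control 3) and genes at that P from 2879 to 5710. Leaving out the 2 samples was chosen after seeing the data, and the causes of these differences were not tested.

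With DESeq2, the lists held 7 immediate-early, 3 NF-kB and inflammatory, 1 interferon, 2 matrix, 2 TGF-beta family, 1 cell cycle, 2 growth factor, 3 oocyte, 1 endothelial, 1 smooth muscle and 3 candidate DEGs. The fit of all 26 samples held 1 matrix, 1 TGF-beta family and 1 cell cycle DEG. At an unadjusted P under 0.05, higher NF-kB and inflammatory genes numbered 11 with DESeq2, 16 without the 2 samples and 3 to 14 with 1 left out. Higher TGF-beta family genes numbered 5 with DESeq2 and in the fit of all 26 samples, 8 without the 2 samples and 2 to 6 with 1 left out. Higher oocyte genes numbered 11 with DESeq2, 3 in the fit of all 26 samples, 13 without the 2 samples and 4 to 12 with 1 left out. Higher growth factor genes numbered 8 without the 2 samples and 2 to 7 with 1 left out, candidates 8 and 3 to 9, and matrix genes 1 to 3 with 1 left out. The mean r within a day ranged from 0.834 to 0.970 on day 10 and from 0.709 to 0.921 on day 20.

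Of 119 named genes, 7 changed the sign of their treated log2 fold change. With limma voom, IDO1 had 0.0014 and LCN2 had -0.924. With 1 sample left out, the IDO1 log2 fold change was -0.705 to 0.319, the HSD17B7 log2 fold change -0.873 to 0.0387, the ACOT12 log2 fold change -0.289 to 0.159, the PTK2 log2 fold change -0.195 to 0.0242, the FOSL1 log2 fold change -0.355 to 0.204, the CYP19A1 log2 fold change -1.16 to 0.439 and the LCN2 log2 fold change -3.35 (without day 20 sample 2) to 3.45. DESeq2 called 48 of the 119 and the fit of all 26 samples 8.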

Other observations

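The lists of stress, respiration and apoptosis had no member with an unadjusted P under 0.05 in treated dogs. Of 13 stress and unfolded protein genes, 11 had negative log2 fold changes, with a median of -0.40, against 0.37 in controls. GCLM, which encodes a subunit of the enzyme that starts glutathione synthesis, had 9.2, 51.2 and 70 CPM on day 10 and 5.81, 14.8 and 20.7 CPM on day 20. Its days overlapped, with day 10 sample 1 low. Of 13 genes of mitochondrial respiration, 12 were negative, with a median of -0.45, against -0.90 in controls. The treated median was -0.10 without day 20 sample 3 and -0.79 without day 10 sample 1 and day 20 sample 2. The 9 apoptosis genes had a median of 0.28 in treated and 0.0013 in control dogs, and the treated median was -0.08 without day 20 sample 3. FASLG, a ligand that triggers cell death, had 1.83, 1.93 and 2.06 CPM on day 10 and 0.868, 1.58 and 1.31 CPM on day 20.

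Markers of rarer cells rested on 1 to 4 genes each. Among 4 T and NK cell markers, GZMB, a protease of cytotoxic granules, was lower on day 20 at an unadjusted P under 0.05 and had 3.29, 2 and 42.3 CPM on day 10 and 2.6, 1.63 and 1.56 CPM on day 20. Most of this difference lay in day 10 sample 5, and GZMB kept the P in 3 of 6 fits without 1 treated sample, as did CD22. The B cell receptor CD22 was the lower of 2 B cell markers at this P and had 11.3, 2.64 and 5.41 CPM on day 10 and 2.66, 1.01 and 0.73 CPM on day 20. The summed level of the 2 neutrophil markers, LCN2 and LTF, was 4.87, 4.39 and 10.7 CPM on day 10 and 39.4, 3.83 and 4.62 CPM on day 20, high in 1 sample. The erythroid gene ALAS2, which starts heme synthesis, had 1.34, 0.451 and 1.33 CPM on day 10 and 1.25, 2.25 and 8.23 CPM on day 20. The 3 epithelial markers with a symbol, 2 of them tested, summed to 25.3, 36.3 and 16.5 CPM on day 10 and 34.4, 91.7 and 38.9 CPM on day 20. Of 3 adipocyte markers, the lipid droplet protein PLIN4 was higher at this P and had 0.487, 1.16 and 1.05 CPM on day 10 and 8.14, 3.83 and 2 CPM on day 20, while the sum was 31.7, 13.9 and 18.3 CPM on day 10 and 27.8, 7.18 and 15.4 CPM on day 20. Of 2 nerve markers tested, the neurofilament NEFL was higher and had 1.04, 1.87 and 0.321 CPM on day 10 and 10.7, 2.11 and 3.41 CPM on day 20, most in day 20 sample 2, and it kept the P in 3 of 6 fits without 1 treated sample. Without day 10 sample 1 and day 20 sample 2 together, 0 nerve markers had it. The 2 skeletal muscle markers summed to 0.122, 0.58 and 0.642 CPM on day 10 and 1.36, 1.58 and 0.584 CPM on day 20.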
